A study of Homo sapiens with 24 samples.

Results

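H929 cells that had been exposed to YKL-5-124 for 6 h were compared with H929 cells kept in DMSO for the same time. The comparison used 6 of the 24 libraries of the series, 3 labelled YKL-5-124 and 3 labelled DMSO, all chosen by their labels alone, and it covered every gene entry other than the spike-in controls. H929 is an established multiple myeloma line, so all 6 libraries come from 1 line. YKL-5-124 was given at 83 nM, and the DMSO labels of this line carry the same 83 nM. The other 18 libraries hold H929 after 24 h and a second myeloma line, MM1S, after 6 and 24 h (98 nM), each with 3 libraries per treatment. RNA was read as 3' end libraries (QuantSeq), and ERCC spike-in RNAs are listed beside the genes. The labels do not say whether the 3 replicates were separate cultures. The p-values of the gene tests rest on the spread within groups of 3, pooled over all 24 libraries. This spread may be purely technical.

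The series title names CDK7 as the inhibited enzyme. CDK7 is the kinase of the general transcription factor TFIIH: it phosphorylates the C-terminal tail of RNA polymerase II as transcription starts, and as part of the CDK-activating kinase it activates the CDKs that drive the cell cycle. When transcription is inhibited for a few hours, RNAs with short half-lives are the first whose levels can drop, while stable RNAs persist. Plasma cells and myeloma cells secrete large amounts of protein and depend on ribosome production, on the unfolded protein response and on lineage regulators such as IRF4 and XBP1.

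Levels are the deposited values, read here as FPKM (a fragment count scaled for transcript length and by a factor for each library), and 3 values in a row are replicates 1, 2 and 3. These values do not share 1 library total. Over the 6 libraries the summed ERCC entries lay between 142503 and 148543 FPKM, while the summed gene entries ran from 1524366 to 2519635 FPKM, so the deposited scale holds the spike-ins nearly level and lets the gene total vary. No file gives read counts, so the depth behind a value is unknown. The 26249 gene entries summed to 10.5 to 15.8 times the ERCC entries with YKL-5-124 and to 14.1 to 17.1 times with DMSO, with replicate 1 of YKL-5-124 the lowest of the 6. The ratio of the group means was 0.868 (exact permutation test, two-sided p = 0.4, where 3 against 3 cannot go below 0.1), and it was 0.972 without that library. Genes at or above 1 FPKM numbered 10350 ± 286 (SD, n = 3) in DMSO and 10648 ± 280 with YKL-5-124 (exact permutation p = 0.3). In bulk RNA, fewer cells of a type and less RNA per cell cannot be told apart. All 9 plasma cell markers were measured. Of these, only XBP1 was called, and it was lower. After the rescaling described below, XBP1 and POU2AF1 were called lower and PRDM1 higher. The summed level of the 9 markers ran from 6810 to 8620 FPKM in DMSO and from 3880 to 5840 FPKM with YKL-5-124. XBP1 made up a large part of that sum, with 2738 to 3755 FPKM in DMSO and 1037 to 1537 FPKM with YKL-5-124. Of the 10 T cell markers, 9 stayed under 1 FPKM in all 6 libraries (summed level 1.97 to 4.48 FPKM in DMSO, 3.07 to 5.1 with YKL-5-124). The same held for 9 of 10 epithelial cell and fibroblast markers (20.3 to 34.4 against 21.9 to 30.5 FPKM) and for 5 of 10 monocyte markers (26.3 to 32.3 against 24.4 to 34.3 FPKM). None of the 8 markers of these other cell types that could be tested was called.

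At 6 h in H929, of 12418 genes tested, 128 rose (1.03%) and 144 fell (1.16%) on the deposited scale, by limma on log2(FPKM + 1) with an adjusted p under 0.05. At an unadjusted p under 0.05 the numbers were 809 higher and 1053 lower. On simulated data with these groups the test recovered 31 of 100 genes changed by 1 log2 unit and 97 of 100 changed by 2. It made 135 calls, of which 7 were false. Changes were planted only in genes with a DMSO mean above 3 on the log2(FPKM + 1) scale. The noise was independent, without a shift shared by the genes of a library. For such genes the counts may thus leave out many changes of the smaller size, and lower genes were not covered. The median change among the called genes was 1.07 on the log2 scale for those that rose and 1.24 in size for those that fell, and 79 and 122 of them changed by at least 1. The 3 YKL-5-124 values lay wholly outside the 3 DMSO values for 127 of the 128 risers and for all 144 fallers. Such separation alone was found for 8.61% of all tested genes upwards and for 12.5% downwards. Because 1 is added before taking logs, genes near or below 1 FPKM changed by more than the log2 values here say.

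Each result was also computed after every library was divided by its median ratio to 6014 reference genes, which levels the typical gene instead of the spike-ins. This rescaling moved the median change of all tested genes from -0.06 to 0.07. It raised the counts to 635 higher (5.11%) and 520 lower (4.19%), and 250 of the 272 genes called on the deposited scale (2.19% of those tested) were called in the same direction on both. Called without further remark means on the deposited scale below. A change after ± carries the standard error from the fit over all 24 libraries, with n = 3 per group.

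**Figure D1:**
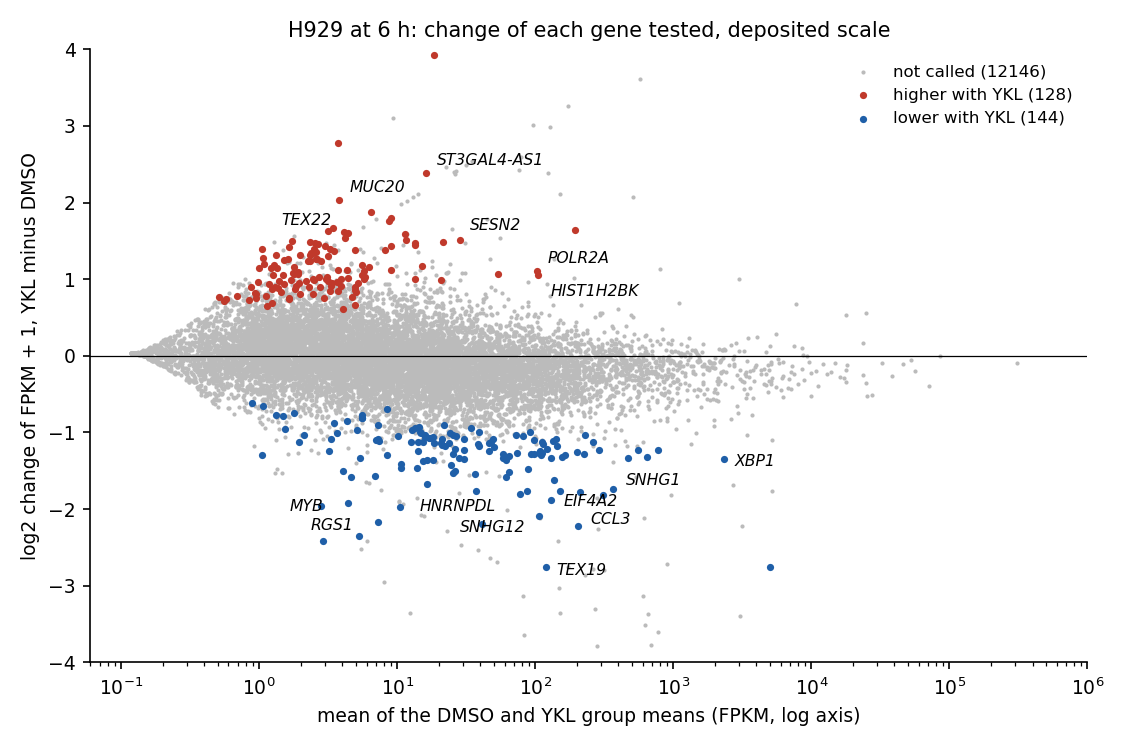
Change of every tested gene in H929 at 6 h (log2 of FPKM + 1, YKL-5-124 minus DMSO, y axis) against its mean FPKM over both groups (log axis), with the 128 genes called higher and the 144 called lower in colour. Of the 144 genes called lower, 111 lie at 10 FPKM or more, and 26 entries beyond 4 log2 units, all small RNA entries, lie outside the plotted range.

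Leaving out 1 of the 6 libraries changed how many genes passed. The count of risers was 69, 56 and 67 without DMSO replicate 1, 2 or 3, and 124, 55 and 50 without YKL-5-124 replicate 1, 2 or 3. The count of fallers was 167, 32 and 46 without the DMSO replicates in turn, and 41, 79 and 63 without the YKL-5-124 replicates in turn. In all 6 of these refits, 29 of the 128 risers (22.7%) and 29 of the 144 fallers (20.1%) were called. After rescaling, 200 of 635 (31.5%) and 223 of 520 (42.9%) were. Below, "the 6 refits" means these, and a gene is said to hold where all 6 called it.

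**Figure D2:**
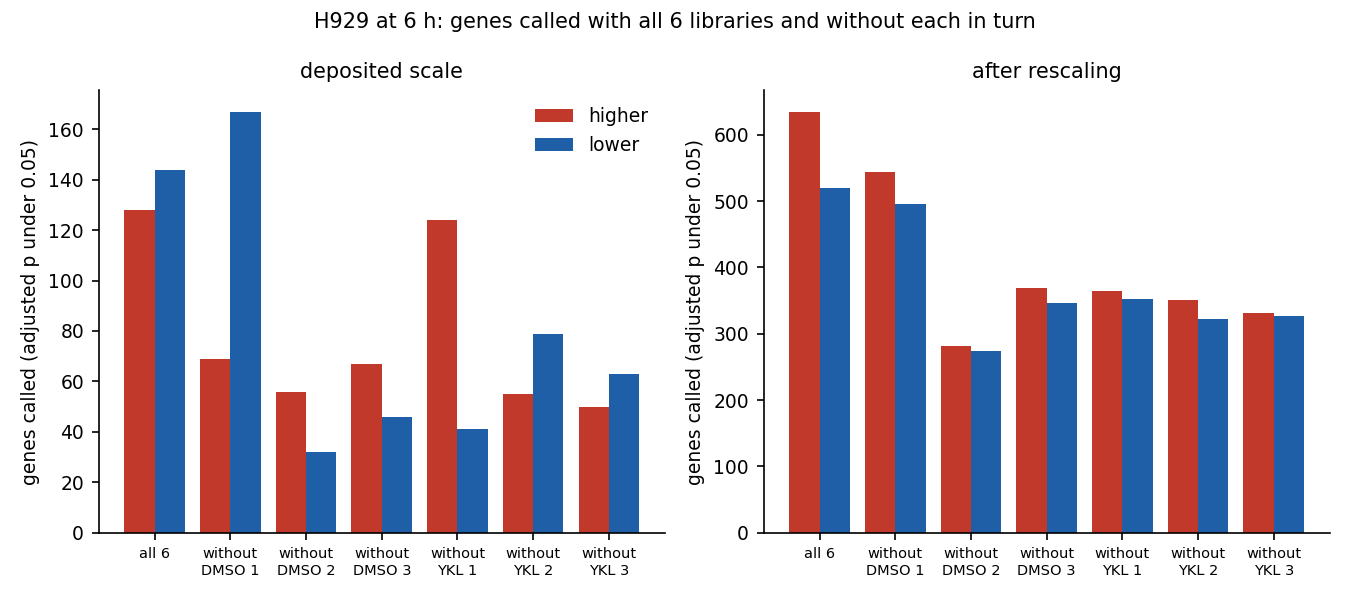
Number of genes called higher and lower in H929 at 6 h with all 6 libraries and without each in turn (x axis), on the deposited scale and after rescaling. Without DMSO replicate 2 the counts fell to 56 higher and 32 lower on the deposited scale.

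Genes that carry small nucleolar RNAs (snoRNAs) in their introns were among those that fell. snoRNAs guide the chemical modification and cleavage of ribosomal RNA, and many are cut out of the introns of host genes, some of which (the SNHG genes) are mostly noncoding and have short-lived spliced RNAs. Of 18 SNHG genes tested, 4 fell and none rose (1.16% and 1.03% of all genes), with a median change of -0.51 against -0.06 for all genes. After rescaling 8 fell (44.4%, against 4.19% of all genes) and 1 rose (5.56% against 5.11%). SNHG1 measured 489.6, 627 and 571 FPKM in DMSO and 121, 188 and 203 FPKM with YKL-5-124. SNHG7 measured 265, 354 and 354 FPKM in DMSO and 74.2, 102 and 107 FPKM with YKL-5-124. SNHG12 measured 127, 232 and 163 FPKM in DMSO and 25.9, 48.9 and 46.6 FPKM with YKL-5-124. In each of these 3 genes every treated library was below every DMSO library, with changes of -1.74 ± 0.28 for SNHG1 (adjusted p = 0.00187), -1.77 ± 0.30 for SNHG7 (0.00273) and -2.09 ± 0.35 for SNHG12 (0.00278). All 3 held in the 6 refits. SNHG17 (71.5, 92.5 and 102 against 22.9, 41.9 and 39.5 FPKM, change -1.36 ± 0.32, adjusted p = 0.0227) was not called without DMSO replicate 2 or 3 or YKL-5-124 replicate 1 or 3, with an adjusted p of up to 0.118. GAS5, a long host of the same kind, measured 2240.2, 2295 and 2940.2 FPKM in DMSO and 1001, 1836 and 1434 FPKM with YKL-5-124 (change -0.84 ± 0.30, adjusted p = 0.162; after rescaling -0.64, adjusted p = 0.0094). SNHG8 and SNHG3 were called only after rescaling, with rescaled changes of -0.90 and -0.77. SNHG25, which alone made up 10.1% to 17.2% of the summed FPKM of these libraries, changed by -0.09 ± 0.41 (adjusted p = 0.963).

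Hosts of snoRNAs other than the SNHG genes fell as well. Over all 161 tested genes whose span in the GENCODE annotation holds a snoRNA or small Cajal body RNA, a set put together after values had been seen, 13 fell (8.07%) and none rose. After rescaling 26 fell (16.1%) and 6 rose. These counts include the SNHG genes. Without those, 9 of 143 fell (6.29%, against 1.16% of all tested genes) and none rose. After rescaling 18 of the 143 fell (12.6%, against 4.19%) and 5 rose. The hosts are well expressed. Among hosts with a mean of at least 10 FPKM over both groups, SNHG genes included, 13 of 120 fell (10.8%), beside 111 of 5663 genes of that level (1.96%). EIF4A2, a DEAD-box helicase of the translation initiation complex and host of several snoRNAs, measured 175, 205 and 236 FPKM in DMSO and 41.4, 70.7 and 56.3 FPKM with YKL-5-124. Every treated value was below every control value, and its change of -1.87 ± 0.26 (adjusted p = 0.000402) held in the 6 refits. HSPA8, the constitutive cytosolic HSC70 chaperone, measured 332, 596 and 526 FPKM in DMSO and 98.7, 169.6 and 141 FPKM with YKL-5-124 (change -1.81 ± 0.35, adjusted p = 0.00624) and held too. TAF1D, a subunit of the RNA polymerase I factor SL1, measured 158, 211 and 188 FPKM in DMSO and 53.8, 89.8 and 78.9 FPKM with YKL-5-124 (change -1.33 ± 0.26, adjusted p = 0.00662) and also held. EPB41L4A-AS1, a noncoding host, measured 134, 242 and 182 FPKM in DMSO and 71.4, 92.7 and 87.5 FPKM with YKL-5-124, without overlap (change -1.11 ± 0.29, adjusted p = 0.0454), and was called in only 1 of the 6 refits. The other called hosts included EIF3A and EIF5, which encode translation initiation factors (changes -1.04 ± 0.28 and -0.95 ± 0.25), and RCC1, the nucleotide exchange factor of RAN (-1.12 ± 0.28). None of the 29 ribosomal protein genes that host a snoRNA was called on either scale. Without 1 library the 13 hosts became 12 without DMSO replicate 1, 7 without YKL-5-124 replicate 2 and 6 without any of the other 4, while after rescaling the 26 lay between 18 and 22.

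**Figure D3:**
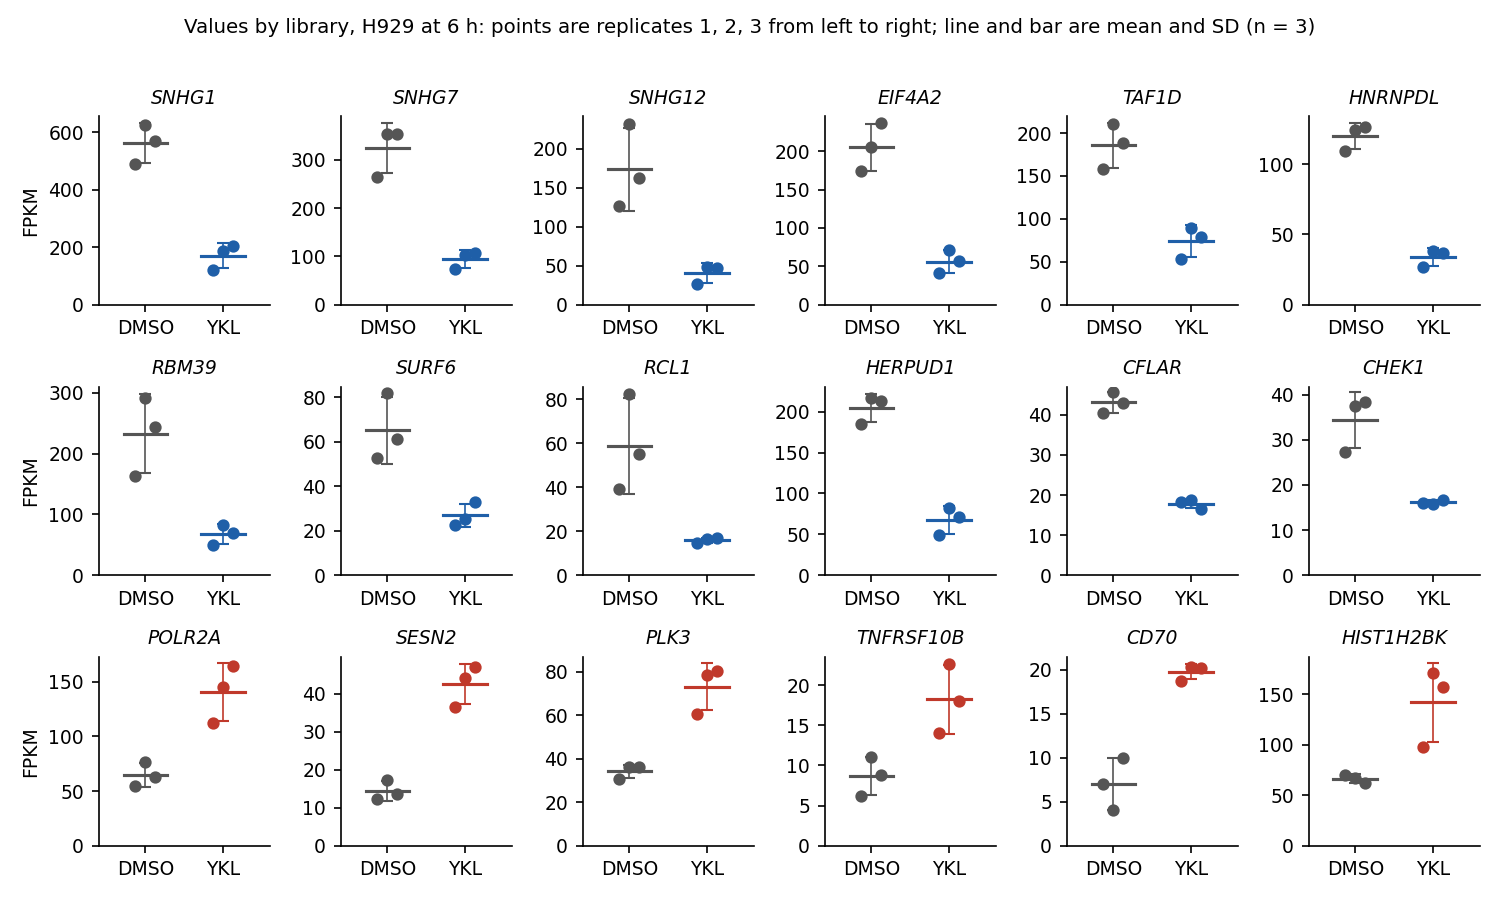
FPKM of 18 genes in each H929 library at 6 h (y axes, 1 panel per gene), DMSO beside YKL-5-124, with points for the 3 replicates and bars for the mean ± SD. In the panels of SNHG1, SNHG7, SNHG12 and EIF4A2 the 3 treated points lie wholly below the 3 DMSO points, and in those of SESN2 and PLK3 wholly above them.

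The small RNA entries themselves were measured less evenly. Of 156 snoRNA and small Cajal body RNA entries tested, 2 rose and 9 fell (5.77%), while 1.03% of all tested genes rose and 1.16% fell. For 107 of the 156 at least 1 of the 6 libraries was under 0.2 FPKM, which is about the lowest value the files list. Their short length also turns few fragments into a large FPKM, so no fold is given against such values. SNORA45A measured 473, 233 and 215 FPKM in DMSO and 0.112, 0.141 and 0.134 FPKM with YKL-5-124, and SNORA18 measured 192, 106 and 133 FPKM in DMSO and 0.115, 0.144 and 0.135 FPKM with YKL-5-124. Both were thus at the lowest listed level in all 3 treated libraries, as were 6 of the 9 entries that fell. SNORA19, measurable throughout, read 9197, 5626 and 11231 FPKM in DMSO and 692, 1459.6 and 1863 FPKM with YKL-5-124, without overlap (change -2.76 ± 0.51, adjusted p = 0.00481). SCARNA12 went the other way, with 80.4, 85.2 and 116 FPKM in DMSO and 247, 339 and 296 FPKM with YKL-5-124 (change 1.64 ± 0.29, adjusted p = 0.00302). Both held in the 6 refits. The host was also called lower for 3 of the 8 fallen entries that have a tested host: TAF1D for SNORA18, EPB41L4A-AS1 for SNORA13 and EIF3A for SNORA19. Whether reads of a host intron were counted to a snoRNA, or the reverse, cannot be told from the files. Whether 3' end libraries capture the mature small RNAs was not tested, so these values may not be levels of those RNAs.

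Part of the genes for making ribosomes fell, and more of them after rescaling. RNA polymerase I transcribes the ribosomal RNA precursor, RNA polymerase III the 5S RNA and tRNAs, and a large set of nucleolar proteins trims the precursor and assembles the subunits. Of 57 nucleolar factors tested, 7 fell (12.3%, against 1.16% of all tested genes) and none rose (median change -0.60). After rescaling 25 fell (43.9% against 4.19%, median -0.40, beside 0.07 for all genes). Of 35 subunits and factors of RNA polymerases I and III, 4 fell and none rose (median -0.50), and after rescaling 7 fell. A promoter feature that played no part in choosing these genes is the E-box CACGTG, the sequence bound by MYC-MAX and related bHLH factors. In RefSeq promoter windows of 300 bases (250 before to 50 after the start, GRCh38.p14), searched on both strands, it was found for 21 of 49 nucleolar factors with a window (42.9%) and for 7 of 29 RNA polymerase I and III genes (24.1%), beside 10.7% of all 9733 tested genes with one. These shares describe whole lists, whether or not a member fell. Among all genes called, the E-box was found for 17 of 107 fallers with a window (15.9%) and for 6.74% of risers. With the calls after rescaling the share was 12.4% of fallers (52 of 421) and 10.6% of risers, near that of all genes. The upstream 250 bases of SURF6 (minus strand, chr9:133336189-133336438) and of NAT10 (plus strand, chr11:34105379-34105628) are shown 5' to 3'. The E-box is in capitals, 224 and 15 bases before the annotated start. These sequences do not show how common the E-box was among the nucleolar genes that fell.
SURF6: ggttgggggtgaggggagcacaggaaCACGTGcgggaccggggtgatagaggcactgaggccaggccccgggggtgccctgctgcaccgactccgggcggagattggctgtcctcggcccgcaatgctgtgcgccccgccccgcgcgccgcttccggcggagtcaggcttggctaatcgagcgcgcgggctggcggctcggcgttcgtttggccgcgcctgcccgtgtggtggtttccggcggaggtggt
NAT10: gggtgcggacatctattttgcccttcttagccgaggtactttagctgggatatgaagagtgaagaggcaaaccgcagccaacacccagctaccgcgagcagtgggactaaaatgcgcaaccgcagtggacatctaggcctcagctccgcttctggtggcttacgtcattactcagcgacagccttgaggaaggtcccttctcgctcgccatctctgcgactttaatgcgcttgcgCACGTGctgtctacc
A match is a description of the letters and does not show that a factor binds there. MYC itself was listed at 0.337, 0.215 and 0.697 FPKM in DMSO and 0.132, 0.275 and 0.161 FPKM with YKL-5-124. It was not called (change -0.24, adjusted p = 0.83). Some of these values lie near the lowest listed level, so they cannot show whether MYC changed.

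SURF6, a nucleolar matrix protein of ribosome assembly, measured 52.5, 81.8 and 61.4 FPKM in DMSO and 22.8, 25.1 and 32.7 FPKM with YKL-5-124. RCL1, which acts in early cleavage of the ribosomal RNA precursor, measured 39.2, 82.4 and 55 FPKM in DMSO and 14.6, 16.5 and 16.7 FPKM with YKL-5-124. BRIX1, a factor of the large subunit, measured 82.7, 117 and 118 FPKM in DMSO and 34.5, 45 and 49.9 FPKM with YKL-5-124. All 9 treated values of these genes were below all control values of the same gene, with changes of -1.24 ± 0.26 (adjusted p = 0.0113), -1.76 ± 0.35 (0.0094) and -1.27 ± 0.28 (0.0164). RPF2, which brings the 5S particle into the large subunit, fell from 24.4, 37.7 and 30.9 to 10.9, 15.6 and 12.8 FPKM (change -1.17 ± 0.30, adjusted p = 0.0357). LYAR, a nucleolar regulator, fell from 78.7, 124 and 89.8 to 39.5, 53 and 47.6 FPKM (-1.03 ± 0.27, adjusted p = 0.0493). Among the polymerase genes, POLR1B, the second largest subunit of RNA polymerase I, measured 12.3, 15.1 and 14.8 FPKM in DMSO and 5.07, 6.55 and 7.4 FPKM with YKL-5-124 (change -1.05 ± 0.23, adjusted p = 0.0151). POLR1C, shared by polymerases I and III, measured 62.6, 97.9 and 92.9 FPKM in DMSO and 26.2, 35.8 and 35.7 FPKM with YKL-5-124 (-1.34 ± 0.30, adjusted p = 0.0187). CD3EAP, an RNA polymerase I subunit also known as PAF49, measured 28.5, 42.7 and 37.7 FPKM in DMSO and 12.7, 13 and 17.3 FPKM with YKL-5-124 (-1.28 ± 0.27, adjusted p = 0.0126). None of these ranges overlapped. NAT10, the acetyltransferase of 18S RNA, was called only after rescaling, with 28.8, 35.5 and 23.8 FPKM in DMSO and 12.6, 16.7 and 15.8 FPKM with YKL-5-124 (rescaled change -0.70, adjusted p = 0.00836), as were IMP3 (-0.92), WDR43 (-0.71) and UBTF (-0.48), the last a factor that loads RNA polymerase I. For 2 abundant nucleolar proteins the test was not passed: NPM1 changed by -0.48 ± 0.28 and FBL by -0.21 ± 0.28 (adjusted p = 0.456 and 0.818). Apart from TAF1D, which held, these calls on the deposited scale were each lost without 1 or more of the libraries: the 7 nucleolar genes became 9, 0 and 2 without DMSO replicate 1, 2 or 3 and 1, 4 and 5 without YKL-5-124 replicate 1, 2 or 3, and the 4 polymerase genes became 1 without DMSO replicate 2 or 3 or YKL-5-124 replicate 1. RCL1 was lost only without DMSO replicate 2 (adjusted p = 0.071). After rescaling the 25 nucleolar genes lay between 15 and 23.

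Splicing regulators of the SR and hnRNP families fell in part. These proteins bind exons and introns and set splice site choice, and many of them tune their own RNA through exons that trigger its decay. Of 46 tested, 4 fell (8.70%, against 1.16% of all tested genes) and none rose (median -0.31). After rescaling 13 fell (28.3% against 4.19%) and none rose. HNRNPDL measured 109.5, 124 and 126 FPKM in DMSO and 26.8, 38.3 and 36.9 FPKM with YKL-5-124, and RBM39, a U2AF-related splicing factor, measured 163, 292 and 244 FPKM in DMSO and 49.6, 83 and 69.9 FPKM with YKL-5-124. Both fell far below the control range, with changes of -1.80 ± 0.26 (adjusted p = 0.000553) and -1.76 ± 0.29 (adjusted p = 0.00221), and both held in the 6 refits. SRSF3 measured 183, 192 and 199 FPKM in DMSO and 73.7, 103 and 94.8 FPKM with YKL-5-124 (change -1.09 ± 0.25, adjusted p = 0.0237), and SRSF6 measured 62.8, 66.6 and 67.2 FPKM in DMSO and 25.8, 33.8 and 29.4 FPKM with YKL-5-124 (change -1.12 ± 0.27, adjusted p = 0.0298). SRSF3 was called in 2 of the 6 refits and SRSF6 in none, with an adjusted p of up to 0.101 and 0.105. SRSF1 and SRSF7 were called after rescaling only, with changes of -0.88 and -0.75. 2 further RNA-binding genes, named after their values were seen, were FUBP1, the far upstream element binding protein (97.1, 100 and 91.5 FPKM in DMSO and 25.8, 37.6 and 36.9 FPKM with YKL-5-124, change -1.52 ± 0.30, adjusted p = 0.00757), and DDX17, an RNA helicase (119.8, 179.7 and 156 FPKM in DMSO and 50.2, 72.5 and 67.5 FPKM with YKL-5-124, change -1.24 ± 0.29, adjusted p = 0.0217). Neither pair of ranges overlapped. Without DMSO replicate 2 or 3, or YKL-5-124 replicate 1 or 3, 2 of the 4 listed calls were left.

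Of 54 genes of the transcription machinery that CDK7 belongs to, 1 rose (1.85%, against 1.03% of all tested genes) and 3 fell (5.56% against 1.16%). After rescaling 4 rose and 4 fell (7.41% each, against 5.11% and 4.19%), so the share that rose was near the background on both scales. The riser was POLR2A, the largest subunit of RNA polymerase II, whose C-terminal tail is the substrate of CDK7. POLR2A measured 54.5, 76.7 and 63 FPKM in DMSO and 112, 145 and 164 FPKM with YKL-5-124, so the lowest treated value was above the highest control value (change 1.10 ± 0.29, adjusted p = 0.0452; rescaled 1.28, adjusted p = 1.52e-07). The 3 fallers belong to the 7SK particle or to the pausing factor NELF. LARP7, which stabilises the 7SK RNA, measured 18.5, 25.5 and 20.4 FPKM in DMSO and 7.64, 8.92 and 11.5 FPKM with YKL-5-124 (change -1.12 ± 0.28, adjusted p = 0.0323). MEPCE, which caps 7SK, measured 129, 173 and 172 FPKM in DMSO and 44.3, 74.6 and 80.6 FPKM with YKL-5-124 (-1.27 ± 0.32, adjusted p = 0.0341). NELFA, a subunit of the pausing factor NELF, measured 41.6, 59.6 and 58.9 FPKM in DMSO and 20.5, 23.9 and 25.4 FPKM with YKL-5-124 (-1.15 ± 0.30, adjusted p = 0.0449). Again no treated value reached the control range. HEXIM1, which holds the elongation kinase P-TEFb inactive within the 7SK complex, was called higher after rescaling only (9.28, 8.82 and 6.98 FPKM in DMSO and 10.6, 14.5 and 16.9 FPKM with YKL-5-124, rescaled change 0.79, adjusted p = 0.0108). CDK12, an elongation kinase, was called lower after rescaling only (6.29, 6.99 and 6.63 FPKM in DMSO and 2.92, 4.42 and 4.1 FPKM with YKL-5-124, rescaled change -0.46, adjusted p = 0.00864). CDK7 measured 9.3, 8.89 and 10.2 FPKM in DMSO and 6.13, 7.75 and 5.46 FPKM with YKL-5-124 (change -0.50 ± 0.33, adjusted p = 0.516), and its partners in the CDK-activating kinase, CCNH and MNAT1, changed by 0.20 ± 0.32 and 0.10 ± 0.27 (adjusted p = 0.864 and 0.935). On the deposited scale POLR2A was called in none of the 6 refits (adjusted p up to 0.161), and the 3 fallers only in the refit without DMSO replicate 1. After rescaling all 4 held.

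Part of the p53 target genes rose, and none fell. p53 is a DNA damage and stress responsive transcription factor whose targets arrest the cell cycle, repair DNA and start apoptosis. Of 38 tested, 7 rose (18.4%, against 1.03% of all tested genes) and none fell (median 0.30 against -0.06 for all genes). After rescaling 15 rose (39.5% against 5.11%) and none fell. SESN1, a sestrin that restrains mTORC1, measured 4.15, 4.42 and 4.65 FPKM in DMSO and 13, 13.6 and 14.4 FPKM with YKL-5-124. SESN2, its relative, measured 12.3, 17.4 and 13.5 FPKM in DMSO and 36.6, 44 and 46.9 FPKM with YKL-5-124. POLH, the translesion DNA polymerase eta, measured 4.8, 5.87 and 5.04 FPKM in DMSO and 10.4, 15 and 12.5 FPKM with YKL-5-124. In these 3 genes every treated library was above every control, with changes of 1.44 ± 0.27, 1.51 ± 0.26 and 1.12 ± 0.22 (adjusted p = 0.00609, 0.00302 and 0.00913). PLK3, a stress-responsive kinase, measured 30.9, 36.2 and 36 FPKM in DMSO and 60.7, 78.8 and 80.4 FPKM with YKL-5-124 (change 1.06 ± 0.24, adjusted p = 0.0187). TNFRSF10B, the death receptor DR5, measured 6.24, 11 and 8.76 FPKM in DMSO and 14.1, 22.7 and 18 FPKM with YKL-5-124 (1.0 ± 0.25, adjusted p = 0.0357). TP53INP1 and EDA2R, a p53-induced nuclear protein and a TNF receptor family member, rose by 0.96 ± 0.23 and 0.86 ± 0.20 (adjusted p = 0.0261 and 0.0261). All of these ranges were separate too. CDKN1A, the CDK inhibitor p21, measured 69.7, 91.6 and 88.2 FPKM in DMSO and 127, 188 and 169.7 FPKM with YKL-5-124 (change 0.94 ± 0.27, adjusted p = 0.0667; rescaled 1.13, adjusted p = 5.39e-05). FDXR, a mitochondrial reductase, and GADD45A, a growth arrest gene, were also called after rescaling only (1.04 and 1.23). Other familiar targets were not called on either scale: MDM2, the ubiquitin ligase of p53, measured 57.1, 102 and 74.8 FPKM in DMSO and 42.2, 62.4 and 55.9 FPKM with YKL-5-124 (change -0.52 ± 0.29, adjusted p = 0.425), and BAX and BBC3, both pro-apoptotic, changed by -0.03 ± 0.30 and 0.25 ± 0.37 (adjusted p = 0.986 and 0.841). SESN1 and SESN2 held in the 6 refits, and POLH was lost only without YKL-5-124 replicate 2 (adjusted p = 0.0515). TNFRSF10B was called in 2 of the 6 refits, PLK3 and EDA2R in 1 each, and TP53INP1 in none. The 7 became 3 without DMSO replicate 1 or 3 or YKL-5-124 replicate 2 or 3, 4 without DMSO replicate 2 and 6 without YKL-5-124 replicate 1, while after rescaling the 15 lay between 11 and 15.

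The wider sestrin, autophagy and lysosome list held little besides these. SESN1 and SESN2 were its only 2 called members of 58, both higher (3.45%, against 1.03% of all tested genes). After rescaling 8 rose (13.8% against 5.11%) and 2 fell (3.45% against 4.19%). Among them were ATG2A, a lipid transfer protein of the autophagosome (rescaled 0.70), and DEPTOR, an mTOR inhibitor with high levels in many myelomas (rescaled -0.61).

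**Figure D4:**
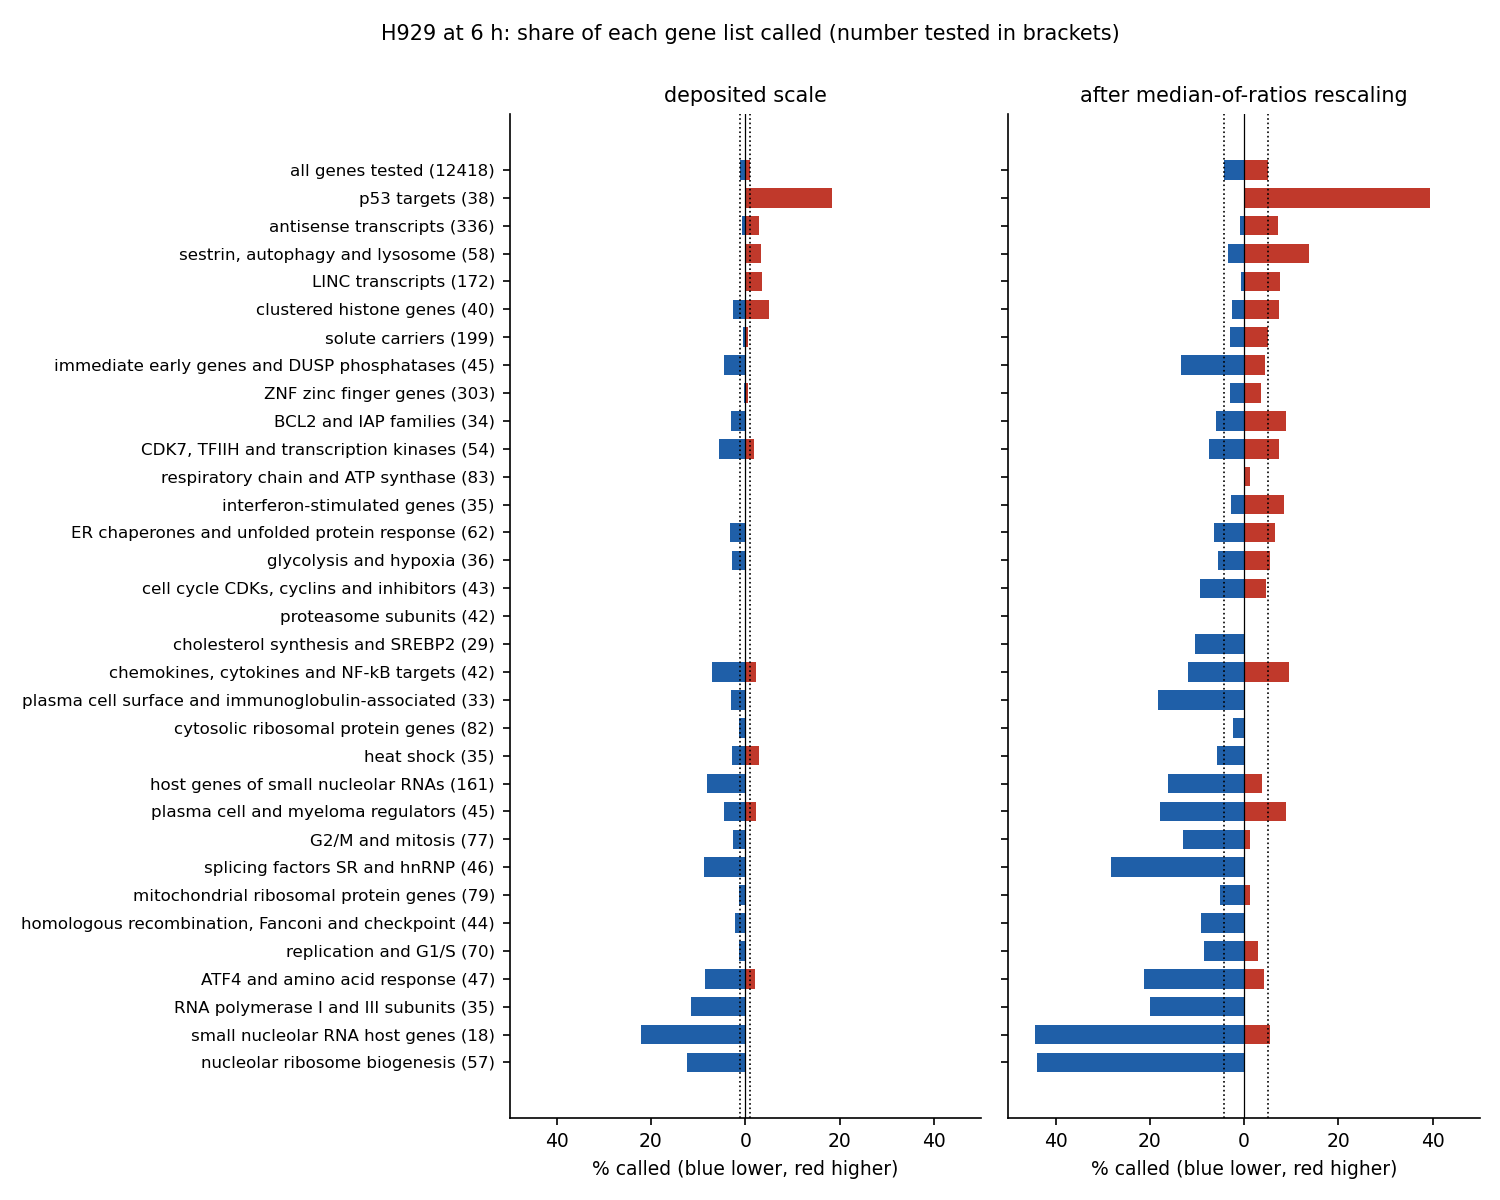
Percent of the tested genes of each list with at least 15 tested members that were called higher or lower in H929 at 6 h (x axis), on the deposited scale and after rescaling, with dotted lines at the percent of all tested genes. On the deposited scale p53 targets have 7 of 38 called higher, and SNHG genes have 4 of 18 called lower.

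A few central genes of the unfolded protein response and of the ATF4 amino acid response fell. XBP1 and ATF4 are transcription factors of these pathways, and HERPUD1 serves the degradation of misfolded ER proteins. Of 62 ER and unfolded protein response genes 2 fell (3.23%, against 1.16% of all tested genes) and none rose. After rescaling 4 fell and 4 rose (6.45% each, against 4.19% and 5.11%). The median change of this list was -0.09 (0.10 after rescaling), near that of all tested genes (-0.06 and 0.07). Of 47 ATF4 and amino acid response genes 4 fell (8.51%) and 1 (SESN2) rose (2.13%, against 1.03%). After rescaling 10 fell (21.3%) and 2 rose (4.3%), and the median was -0.38 (-0.18 after rescaling). HERPUD1 measured 185, 216 and 213 FPKM in DMSO and 49.1, 82.2 and 70.6 FPKM with YKL-5-124, a change of -1.62 ± 0.27 on the log2 scale (adjusted p = 0.00229) that held in the 6 refits. XBP1, which is also a plasma cell marker, measured 2738, 3755 and 3515 FPKM in DMSO and 1037, 1537 and 1369 FPKM with YKL-5-124 (change -1.35 ± 0.31, adjusted p = 0.0202). ATF4 measured 579.5, 969 and 798 FPKM in DMSO and 250.4, 369 and 374 FPKM with YKL-5-124 (change -1.23 ± 0.31, adjusted p = 0.0357). Each of these 3 genes was lower in every treated library than in any control. DDIT4, an mTORC1 inhibitor, and STC2, a secreted glycoprotein, also fell, with changes of -1.22 ± 0.30 and -1.27 ± 0.31 (adjusted p = 0.0325 and 0.0315), the latter not called after rescaling (adjusted p = 0.0539). HSPA5, the ER chaperone BiP, was called after rescaling only, with 797, 1089 and 892 FPKM in DMSO and 385, 575 and 590.4 FPKM with YKL-5-124 (rescaled change -0.66, adjusted p = 0.000224). SYVN1, an ER ubiquitin ligase, was called higher after rescaling (0.45, adjusted p = 0.00682). DDIT3, the pro-apoptotic factor CHOP, was lower after rescaling only (-0.49, adjusted p = 0.0377), and ASNS, asparagine synthetase, was called on neither scale (-0.59 ± 0.31, adjusted p = 0.384). ATF4, DDIT4 and STC2 were each called in 1 of the 6 refits, that without DMSO replicate 1, and XBP1 in 2.

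Among 45 regulators of plasma cells and myeloma, 1 rose (2.22%, against 1.03% of all tested genes) and 2 fell (4.44% against 1.16%). After rescaling 4 rose (8.89% against 5.11%) and 8 fell (17.8% against 4.19%). KLF2, a zinc finger factor of quiescent lymphocytes, measured 14.5, 11.2 and 11.7 FPKM in DMSO and 5.54, 3.26 and 4.81 FPKM with YKL-5-124 (change -1.30 ± 0.31, adjusted p = 0.0261), with no overlap, and was called only in the refit without YKL-5-124 replicate 1. The other faller was XBP1. IRF4, the central regulator of plasma cells, measured 64.5, 79 and 83.1 FPKM in DMSO and 43.5, 62.3 and 60.8 FPKM with YKL-5-124 (change -0.45 ± 0.27, adjusted p = 0.474), so its ranges did not overlap but the test was not passed. IKZF3, a lymphoid zinc finger factor, was called lower after rescaling only (9.89, 16.5 and 12.1 FPKM in DMSO and 5.51, 6.73 and 6.11 FPKM with YKL-5-124, rescaled change -0.71, adjusted p = 0.00245), while IKZF1 was called on neither scale (-0.32, adjusted p = 0.163). WHSC1 (NSD2), a histone methyltransferase that the translocation of this line activates, was called higher after rescaling only (0.50, adjusted p = 0.00134). Of 33 surface genes, 1 fell, the chemokine receptor CCR1, with 121, 150.4 and 136 FPKM in DMSO and 31.1, 46.6 and 41.3 FPKM with YKL-5-124, a wide gap (change -1.76 ± 0.28, adjusted p = 0.0017) that held in the 6 refits. After rescaling 6 surface genes fell (18.2%, against 4.19%), including CXCR3 (-1.04) and SELPLG (-0.60). TNFRSF17 (BCMA), SDC1 (CD138) and CD38, targets of myeloma therapy, changed by -0.45 ± 0.30, -0.12 ± 0.27 and 0.06 ± 0.31 and were not called on either scale.

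Chemokines and signalling genes gave some of the deepest falls. Of 42 chemokine, cytokine and NF-kB target genes, 3 fell (7.14%, against 1.16% of all tested genes) and 1 rose (2.38% against 1.03%). After rescaling 5 fell (11.9% against 4.19%) and 4 rose (9.52% against 5.11%). CCL3, a chemokine (MIP-1 alpha) that myeloma cells secrete, measured 299, 343 and 371 FPKM in DMSO and 55.1, 91.7 and 72.5 FPKM with YKL-5-124 (change -2.22 ± 0.28, adjusted p = 0.000113). RGS1, a regulator that switches off signalling from chemokine receptors, measured 8.87, 15.7 and 12.7 FPKM in DMSO and 1.19, 1.63 and 3.35 FPKM with YKL-5-124 (-2.16 ± 0.33, adjusted p = 0.000918). CCL4, the neighbour of CCL3 in function, measured 12.2, 7.86 and 6.94 FPKM in DMSO and 0.126, 0.165 and 4.38 FPKM with YKL-5-124 (-2.35 ± 0.53, adjusted p = 0.0198). The treated values of all 3 genes stayed below the controls, though those of CCL4 ran from the lowest listed level to 4.38 FPKM, and CCL4 was called in 2 of the 6 refits while CCL3 and RGS1 held. CD70, a ligand of the TNF family, rose, with 7.05, 4 and 9.97 FPKM in DMSO and 18.7, 20.3 and 20.2 FPKM with YKL-5-124 (change 1.44 ± 0.34, adjusted p = 0.0264, called only without DMSO replicate 3). TNFSF9, another ligand of that family that was named after its values were seen, measured 1.05, 1.19 and 1.05 FPKM in DMSO and 3.02, 6.49 and 5.08 FPKM with YKL-5-124 (change 1.44 ± 0.27, adjusted p = 0.00533) and held. Of 45 immediate early and DUSP genes, which respond within minutes to growth signals, 2 fell (4.44%) and none rose. After rescaling 6 fell (13.3%) and 2 rose (4.44%, near the 5.11% of all tested genes). DUSP2, a MAP kinase phosphatase, measured 10.8, 11.3 and 10.6 FPKM in DMSO and 3.06, 2.91 and 3.05 FPKM with YKL-5-124, with little spread in either group (change -1.57 ± 0.27, adjusted p = 0.00302), and held, and KLF2 was the other. JUN was called lower after rescaling (-0.54), IER3 higher (1.20), and FOS and EGR1 on neither scale (0.56 ± 0.33 and -0.66 ± 0.22). The TATA box letters TATAAA, searched like the E-box, were found for 14 of 107 fallers with a promoter window (13.1%), for 7.87% of the risers and for 5.7% of all tested genes with one, and for 32.3% of this chemokine list. With the calls after rescaling the share was 7.84% of fallers (33 of 421) and 6.3% of risers, near that of all genes. The 250 bases before the starts of CCL3, minus strand at chr17:36090144-36090393, and RGS1, plus strand at chr1:192575523-192575772 (GRCh38.p14, RefSeq), are shown 5' to 3' with these letters in capitals, 29 and 27 bases before the start, because they belong to the 2 deepest falls in this group that held.
CCL3: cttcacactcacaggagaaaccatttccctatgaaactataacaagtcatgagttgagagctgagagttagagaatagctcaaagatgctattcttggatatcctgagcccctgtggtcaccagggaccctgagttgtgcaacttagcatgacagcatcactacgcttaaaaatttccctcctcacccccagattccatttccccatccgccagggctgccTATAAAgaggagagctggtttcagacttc
RGS1: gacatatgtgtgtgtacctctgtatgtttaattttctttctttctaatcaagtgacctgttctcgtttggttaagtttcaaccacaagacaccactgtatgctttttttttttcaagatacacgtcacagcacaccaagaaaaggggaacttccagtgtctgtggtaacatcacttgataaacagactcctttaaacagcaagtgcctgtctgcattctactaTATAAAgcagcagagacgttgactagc

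Few cell cycle genes passed the test at 6 h, while their median changes lay below that of all tested genes (-0.06, and 0.07 after rescaling). Of 70 replication and G1/S genes 1 fell and none rose (after rescaling 6 fell and 2 rose), with a median of -0.37 (-0.18 after rescaling), and 29 of the 70 lay wholly below their controls. Of 77 G2/M genes 2 fell and none rose (after rescaling 10 fell and 1 rose), with a median of -0.31 (-0.12 after rescaling), and 28 of the 77 lay wholly below. Among all tested genes 12.5% lay wholly below, 1.16% fell and 1.03% rose, and after rescaling 4.19% fell and 5.11% rose. Of 44 homologous recombination, Fanconi and checkpoint genes 1 fell (after rescaling 4), and of 43 CDKs, cyclins and CDK inhibitors none was called (after rescaling 4 fell and 2 rose, CDKN1A among the latter). CHEK1, the replication checkpoint kinase, measured 27.3, 37.4 and 38.5 FPKM in DMSO and 16.1, 15.7 and 16.8 FPKM with YKL-5-124 (change -1.03 ± 0.22, adjusted p = 0.0133). BUB3, of the spindle checkpoint, measured 122, 200.5 and 187 FPKM in DMSO and 54.5, 88.6 and 74.3 FPKM with YKL-5-124 (-1.21 ± 0.29, adjusted p = 0.0268). TOP2A, the mitotic topoisomerase, measured 157, 304 and 215 FPKM in DMSO and 74.4, 92.8 and 94 FPKM with YKL-5-124 (-1.32 ± 0.32, adjusted p = 0.0315). GINS3, a subunit of the replicative helicase, fell from 16.1, 23.2 and 21 to 8.74, 8.84 and 10.8 FPKM (-1.0 ± 0.24, adjusted p = 0.0261). The treated values of these 4 genes lay below all controls. AURKA, AURKB, PLK1 and CDK1, kinases of mitosis, were called lower only after rescaling, with changes of -0.70, -0.77, -0.80 and -0.51, and ASF1B, a histone chaperone of replication, was called higher (0.92). E2F1, the S phase transcription factor, changed by -0.50 ± 0.28 (adjusted p = 0.413) and CCND2, a D-type cyclin at 1.71, 2.61 and 2.02 FPKM in DMSO, by -0.42 ± 0.29 (adjusted p = 0.552). BRCA1, of homologous recombination, changed by -0.53 ± 0.23 and was called on neither scale. CHEK1 was lost without DMSO replicate 2 or 3 or YKL-5-124 replicate 2 (adjusted p up to 0.0751), BUB3 was called in 2 of the 6 refits, and TOP2A and GINS3 in 1 each.

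In the BCL2 and IAP families 1 of 34 genes fell (2.94%, against 1.16% of all tested genes) and none rose. After rescaling 2 fell (5.88% against 4.19%) and 3 rose (8.82% against 5.11%), so the counts were not far from the background. The faller, CFLAR (c-FLIP), a short-lived inhibitor of caspase-8, measured 40.6, 45.6 and 43.1 FPKM in DMSO and 18.2, 18.7 and 16.6 FPKM with YKL-5-124, with separate ranges (change -1.23 ± 0.26, adjusted p = 0.0141). It was lost without DMSO replicate 2 or 3 or YKL-5-124 replicate 3 (adjusted p up to 0.0706). BCL2L1 (BCL-xL), a survival protein, was called higher after rescaling only, with 8.71, 9.08 and 8.67 FPKM in DMSO and 11.6, 16.3 and 14.7 FPKM with YKL-5-124 (rescaled change 0.75, adjusted p = 0.00127). MCL1, the survival protein on which many myeloma cells depend and whose RNA is short-lived, measured 620.0, 799 and 741 FPKM in DMSO and 550.3, 814 and 771 FPKM with YKL-5-124. Its ranges overlapped, and its change was -0.03 ± 0.26 (adjusted p = 0.984).

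Clustered histone genes, whose products package DNA, gave 2 risers (5.0%, against 1.03% of all tested genes) and 1 faller (2.5% against 1.16%) of 40. After rescaling there were 3 risers (7.5% against 5.11%) and 1 faller (2.5% against 4.19%). HIST1H2BK measured 70.3, 66.9 and 61.7 FPKM in DMSO and 97.6, 171 and 157 FPKM with YKL-5-124 (change 1.05 ± 0.21, adjusted p = 0.0103), and HIST1H2BG measured 1.97, 3.64 and 4.68 FPKM in DMSO and 9.16, 19.9 and 13.1 FPKM with YKL-5-124 (1.75 ± 0.39, adjusted p = 0.0168). HIST1H4C, an abundant histone H4 gene, went down, with 273, 479.7 and 334 FPKM in DMSO and 134, 212 and 147 FPKM with YKL-5-124 (-1.13 ± 0.28, adjusted p = 0.0322). No range overlapped. HIST2H2BE, which can be made as a polyadenylated RNA, was called higher after rescaling only (1.83, 5.39 and 3.83 FPKM in DMSO and 9.05, 11.5 and 8.9 FPKM with YKL-5-124, rescaled change 1.30, adjusted p = 0.007). Members of the histone clusters resemble each other closely enough to share reads, and these values are uncertain on that account. How far 3' end libraries capture histone RNAs was not tested. HIST1H2BK was called in 3 of the 6 refits and the other 2 in 2 each.

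More noncoding transcripts rose than fell. Of 336 antisense transcripts 10 rose (2.98%) and 2 fell, and after rescaling 24 rose and 3 fell. Of 172 LINC transcripts 6 rose (3.49%) and none fell, and after rescaling 13 rose and 1 fell. The background is 1.03% higher and 1.16% lower, and after rescaling 5.11% and 4.19%. ST3GAL4-AS1 measured 4.65, 3.21 and 4.97 FPKM in DMSO and 14.6, 35.2 and 35 FPKM with YKL-5-124 (change 2.39 ± 0.32, adjusted p = 0.000268). ACTA2-AS1 measured 0.223, 0.862 and 0.133 FPKM in DMSO and 1.75, 2.77 and 4.57 FPKM with YKL-5-124 (1.49 ± 0.28, adjusted p = 0.00533), and C9orf173-AS1 measured 0.758, 1.27 and 0.674 FPKM in DMSO and 3.08, 5.03 and 3.17 FPKM with YKL-5-124 (1.31 ± 0.24, adjusted p = 0.00531). In all 3 the treated libraries were above every control, and all 3 held in the 6 refits. SPTY2D1-AS1 rose by 1.45 ± 0.29 and was lost only without YKL-5-124 replicate 3 (adjusted p = 0.0608). LINC01021, a p53-induced RNA, measured 7.09, 15.3 and 11.2 FPKM in DMSO and 31.1, 35.6 and 29.3 FPKM with YKL-5-124 (1.49 ± 0.31, adjusted p = 0.0126). LINC01191 measured 0.309, 0.564 and 0.762 FPKM in DMSO and 3.09, 2.75 and 2.28 FPKM with YKL-5-124 (1.27 ± 0.22, adjusted p = 0.00278), and LINC00926 measured 0.92, 1.31 and 0.49 FPKM in DMSO and 3.19, 2.64 and 2.98 FPKM with YKL-5-124 (1.07 ± 0.19, adjusted p = 0.00459). LINC01191 and LINC00926 held. Of the 9 antisense risers whose partner gene, matched by name, was tested, the partner rose in 1 case and was not called in 8. That case was TOB1, an antiproliferative gene, which measured 4.22, 2.14 and 3.98 FPKM in DMSO and 5.96, 11.9 and 9.25 FPKM with YKL-5-124 (1.16 ± 0.28, adjusted p = 0.0285). A pair in opposite directions, named after its values were seen, was IL10RB-AS1, with 5.32, 10.7 and 6.46 FPKM in DMSO and 2.08, 1.8 and 1.4 FPKM with YKL-5-124 (-1.58 ± 0.32, adjusted p = 0.0107), and IL10RB, a cytokine receptor chain, with 14.4, 25.6 and 17.8 FPKM in DMSO and 37.9, 42.7 and 34 FPKM with YKL-5-124 (0.98 ± 0.28, adjusted p = 0.0638; rescaled 1.14, adjusted p = 0.000303). Both genes of that pair had separate ranges. Whether the counting used strand is not given in the sources used here, so reads of a gene and its antisense partner may not have been told apart. The 10 antisense risers were between 5 (without YKL-5-124 replicate 3) and 12 (without YKL-5-124 replicate 1) in the refits, and the 6 LINC risers between 2 (without DMSO replicate 1) and 7 (without YKL-5-124 replicate 1).

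The other lists had 0 to 3 called members each on the deposited scale. Of all tested genes 1.03% rose and 1.16% fell, and after rescaling 5.11% rose and 4.19% fell. Of 35 heat shock genes HSPA8 fell and DNAJB4, a cochaperone at 0.393, 0.35 and 0.454 FPKM in DMSO and 1.72, 1.44 and 1.26 FPKM with YKL-5-124, rose (0.82 ± 0.21, adjusted p = 0.0434). DNAJB4 was called neither after rescaling nor in any of the 6 refits. After rescaling 2 of the 35 fell and none rose. Of 36 glycolysis and hypoxia genes 1 fell: HILPDA, a lipid droplet protein, measured 93.5, 236 and 145 FPKM in DMSO and 47.3, 60.8 and 73.1 FPKM with YKL-5-124 (-1.29 ± 0.33, adjusted p = 0.0392) and was called only in the refit without DMSO replicate 1. After rescaling 2 of these 36 rose and 2 fell. Among 35 interferon-stimulated genes none was called, and after rescaling 3 rose, STAT2 among them (0.74), and 1 fell. Among 29 cholesterol synthesis genes none was called, and after rescaling 3 fell, SQLE among them (-0.63). Cytosolic ribosomal protein genes numbered 82, of which only RPL22L1, a paralog of RPL22, fell, with 109, 161 and 148 FPKM in DMSO and 47.1, 66.5 and 56.4 FPKM with YKL-5-124 (-1.28 ± 0.27, adjusted p = 0.0141). After rescaling 2 of the 82 fell. Of 79 mitochondrial ribosomal protein genes MRPL27 fell (-1.34 ± 0.33, adjusted p = 0.0327), and after rescaling 4 fell and 1 rose. None of 42 proteasome genes was called on either scale. Of 83 respiratory chain and ATP synthase genes none was called, and NDUFB5 rose after rescaling (0.43). Of 199 solute carriers SLC19A1, the reduced folate carrier, fell (-1.09 ± 0.26, adjusted p = 0.0299) and SLC6A8, the creatine carrier, rose (0.96 ± 0.25, adjusted p = 0.0447), and after rescaling 10 rose (5.025%) and 6 fell (3.015%). Of 303 ZNF zinc finger genes ZNF333 and ZNF558 rose (0.94 ± 0.24 and 1.03 ± 0.25) and ZNF202 fell (-1.01 ± 0.25), and after rescaling 11 rose (3.63%) and 9 fell (2.97%). On both scales the shares of these 2 lists were below those of all tested genes. RPL22L1 and ZNF333 were called in 2 of the 6 refits, MRPL27, SLC19A1 and ZNF202 in 1, and SLC6A8 and ZNF558 in none.

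Several of the largest single falls lay outside these lists. TEX19, a germ cell gene, measured 170.4, 237 and 219 FPKM in DMSO and 24.1, 33.4 and 33 FPKM with YKL-5-124 (-2.75 ± 0.28, adjusted p = 1.2e-05). MYB, a proto-oncogene of blood cells, measured 4.6, 11.7 and 6.57 FPKM in DMSO and 1.58, 1.2 and 0.768 FPKM with YKL-5-124 (-1.92 ± 0.28, adjusted p = 0.00068). FAM69B, a gene of a kinase-like family, measured 13.8, 23.2 and 15.3 FPKM in DMSO and 3.69, 3.8 and 3.34 FPKM with YKL-5-124 (-1.97 ± 0.27, adjusted p = 0.000298). In each of these the highest treated value was below the lowest control value, and each held in the 6 refits. MT1G, a metallothionein, measured 5.2, 1.58 and 8.72 FPKM in DMSO and 0.116, 1.12 and 0.131 FPKM with YKL-5-124 (-1.95 ± 0.36, adjusted p = 0.00527), partly at the lowest listed level. OR7E12P, an olfactory receptor pseudogene, fell, with a change of -2.19 ± 0.38. Its family has many similar copies, so that value is uncertain. TFAP4, a bHLH factor of the E-box named after its values were seen, measured 29.1, 25.5 and 22.5 FPKM in DMSO and 8.39, 6.84 and 6.94 FPKM with YKL-5-124 (-1.67 ± 0.25, adjusted p = 0.000789) and held. HMOX1, heme oxygenase, named in the same way, measured 989.6, 954 and 828 FPKM in DMSO and 298, 391 and 428 FPKM with YKL-5-124 (-1.32 ± 0.29, adjusted p = 0.0161) and was lost without DMSO replicate 2 or YKL-5-124 replicate 1 (adjusted p up to 0.0733).

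Most of the largest rises started from low levels. TEX22 measured 1.57, 1.6 and 1.82 FPKM in DMSO and 7.13, 7.57 and 6.62 FPKM with YKL-5-124, with very little spread (change 1.6 ± 0.19, adjusted p = 8.41e-05). NMNAT1, the nuclear enzyme of NAD synthesis, measured 1.91, 1.51 and 1.07 FPKM in DMSO and 5.14, 6.53 and 8.36 FPKM with YKL-5-124 (1.61 ± 0.28, adjusted p = 0.00283). FBXL8, an F-box protein, measured 0.644, 0.72 and 1.88 FPKM in DMSO and 4.45, 6.34 and 4.98 FPKM with YKL-5-124 (1.63 ± 0.28, adjusted p = 0.00283). In these 3 genes no control reached the treated range. RABL2A, a small GTPase of cilia with a near-identical copy (RABL2B), measured 5.04, 5.87 and 4.15 FPKM in DMSO and 11.1, 19.1 and 23.1 FPKM with YKL-5-124 (1.59 ± 0.30, adjusted p = 0.00527), and the copies may share reads. KRCC1 rose from 1.8, 2.18 and 2.5 to 7.33, 12.2 and 12.9 FPKM (1.87 ± 0.33, adjusted p = 0.00302), and MUC20, a mucin, from 0.509, 1.84 and 0.488 to 6.14, 7.27 and 6.38 FPKM (2.03 ± 0.25, adjusted p = 0.000113). These 6 genes held in the 6 refits. FAM229A rose by 1.80 ± 0.40 and CRYGS, a crystallin, by 1.66 ± 0.42, and they were called in 2 and 1 of the refits.

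To see how much of the 6 h response in H929 was shared, it was set beside H929 at 24 h and beside MM1S at 6 h, which use other libraries. Of the 144 genes that fell in H929 at 6 h, 101 also fell in MM1S at 6 h (70.1%, or 8.11% of the 1245 that fell there, where 10.0% of tested genes fell). Of the 128 that rose, 13 rose in MM1S (10.2%, or 11.3% of the 115 there, background 0.926%), POLR2A, HIST1H2BK, STARD7-AS1 and LINC00926 among them. POLR2A rose by 1.36 in MM1S (adjusted p = 0.00519). After rescaling, where 7.21% of tested genes fell and 8.25% rose in MM1S, 287 of 520 fallers (55.2%) and 239 of 635 risers (37.6%) were shared, and 5 risers and 2 fallers were called in the opposite direction in MM1S. At 24 h in H929, where 35.4% of tested genes fell and 2.67% rose, 126 of the 144 fell (87.5%) and 45 of the 128 rose (35.2%). There 5 of the 128 had turned lower, among them LINC00926 and SCARNA23, and none of the 144 had turned higher. After rescaling the order was the other way round: where 12.5% of tested genes fell and 20.8% rose at 24 h, 311 of the 520 fallers (59.8%) and 423 of the 635 risers (66.6%) were shared, and 38 fallers and 13 risers were called in the opposite direction.

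The difference between the lines was tested as an interaction, H929 change minus MM1S change at 6 h. It was called for 21 genes, 17 higher in H929 (0.137%) and 4 lower (0.0322%), and after rescaling for 90 and 51 (0.725% and 0.411%). Genes called in H929 for which it was also called included KRCC1, MAGIX, PLK3, SCARNA23 and TEX22 (higher) and SNORA13 (lower). Of the p53 targets, PLK3 differed on the deposited scale, with 1.06 ± 0.24 in H929 and -0.65 in MM1S (difference 1.71 ± 0.34, adjusted p = 0.0323). After rescaling 8 of the 38 p53 targets rose more in H929 and none less: SESN1 (difference 1.13, adjusted p = 0.0123), SESN2 (0.82, 0.0123), POLH (0.95, 0.00662), TNFRSF10B (0.95, 0.0123), CDKN1A (0.88, 0.0375), GADD45A, TP53INP1 and PLK3. None of the nucleolar, SNHG or transcription machinery genes differed on the deposited scale, and the median difference over all tested genes was 0.24 (0.03 after rescaling). The 21 became 72 without YKL-5-124 replicate 1, 0 without replicate 2 and 4 without replicate 3, and 9, 9 and 7 without DMSO replicate 1, 2 or 3.

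The change from 6 to 24 h in H929 was tested in the same way. The 24 h change was lower than the 6 h change for 767 genes (6.18%) and higher for 36 (0.29%). After rescaling the split was 579 lower (4.66%) and 716 higher (5.77%). Of the 128 risers at 6 h, 36 had a lower and 2 a higher change at 24 h, the latter HIST1H2BG and HIST1H2BK. Of the 38 p53 targets 12 had a lower change and none a higher one, among them SESN1 (1.44 ± 0.27 at 6 h, -0.32 at 24 h, difference -1.76 ± 0.39, adjusted p = 0.0103), SESN2 (difference -1.82 ± 0.37), CDKN1A (-1.58 ± 0.39) and POLH (-1.63 ± 0.32). After rescaling 8 of these targets had a lower and 6 a higher change. Replication genes, of which 1 fell at 6 h, had a lower change at 24 h for 54 of 70 (47 after rescaling), and G2/M genes for 50 of 77 (42 after rescaling). E2F1 changed by -0.50 ± 0.28 at 6 h and -2.81 at 24 h (difference -2.30 ± 0.39, adjusted p = 0.00202). Among the fallers CHEK1, SNHG1 and LYAR fell further, and RGS1 (-2.16 ± 0.33 at 6 h, -0.03 at 24 h) and TRAF3IP3 (-1.58 ± 0.34 and 0.37) had a higher change at 24 h. Without YKL-5-124 replicate 1 the 803 genes of this test became 1418, and without DMSO replicate 1, or YKL-5-124 replicate 2 or 3, 328, 296 and 292.

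**Figure D5:**
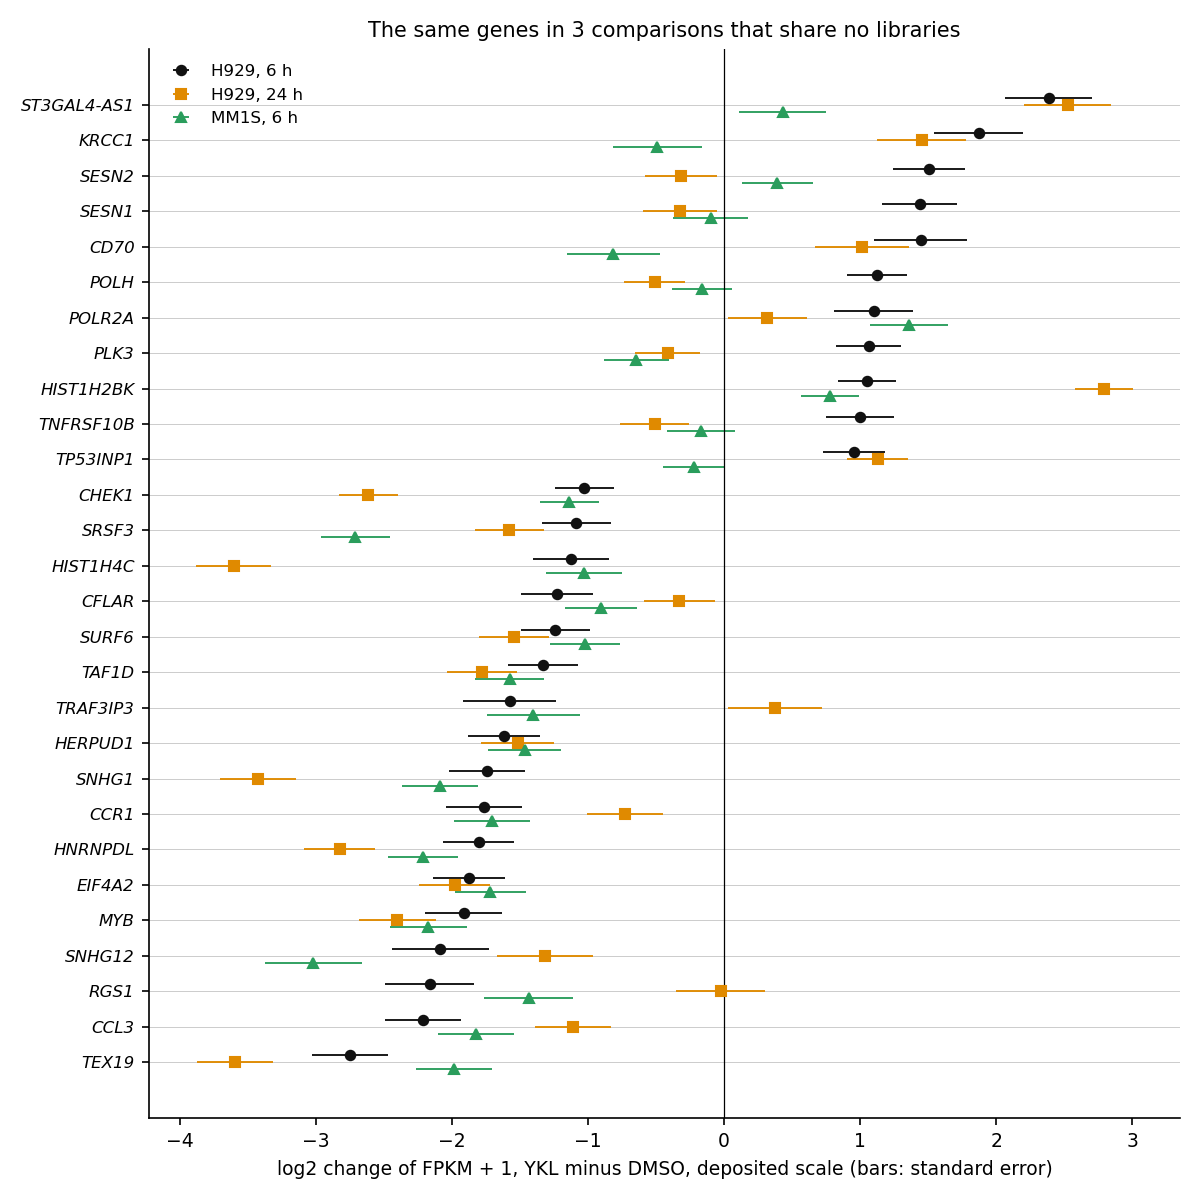
Change of 28 named genes (log2 of FPKM + 1, YKL-5-124 minus DMSO, x axis) in H929 at 6 h, H929 at 24 h and MM1S at 6 h, as points with bars of ± 1 standard error from the fit. POLR2A lies above 0 in H929 and in MM1S at 6 h, and SNHG1, SNHG12 and EIF4A2 lie below 0 in H929 at both times.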

How the data were processed

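Each sample has 1 deposited file of gene entries with 1 value each; the authors deposited these values, read here as FPKM from Cuffnorm, and the unit is inferred from the tool name. Their totals differ between libraries while the ERCC totals are nearly level, and how the authors scaled them is not given in the sources used here. HISAT2, Cuffnorm and hg19 are named, per the submitters' processing notes, and their versions and the counting options are not given in the sources used here. Depth is unknown, and unused columns of per-sample values numbered 0. Samples were grouped by their labels, 3 libraries in each of 8 groups.

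Genes of at least 1 FPKM in at least 3 of the 24 libraries were kept (12418 of 26249 entries other than the 92 ERCC entries). log2(FPKM + 1) was tested with limma 3.58.1 in R 4.3.3 (trend, moderated two-sided test, 8 group means in 1 fit), with Benjamini-Hochberg adjustment over all genes tested and a threshold of 0.05. Interaction contrasts came from the same fit. Rescaled values were first divided by median-of-ratios factors over 6014 reference genes, those whose geometric mean reached 5 FPKM. The scripts were tested on simulated data.

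Members and gene lists were chosen with earlier results of these data known. Genes were named by rule: the 10 largest rises and 10 largest falls among genes called on both scales, without overlap and at 5 FPKM or more in the higher group (no LOC, clone-named or small RNA entries); up to 4 called members of each list, and up to 2 more called only after rescaling; 8 genes always named (CDK7, MYC, IRF4, MCL1, E2F1, CDKN1A, CCND2, XBP1); and for each interaction the 3 largest of each sign among genes called in both tests. Further list members are given for their known roles, and results for a few genes are not reported here. Same-numbered libraries did not deviate together (correlations 0.03, -0.04 and -0.10), so numbers were not treated as pairs. Alternatives were another pseudocount, filter, rescaling, fit, a replicate block and leaving out libraries. Antisense partners were matched by gene name, without a check that their positions overlap. Hosts of snoRNAs were taken from overlaps in the GENCODE v29 annotation (GRCh38). Gene length was not analysed here, since that build differs from the files' hg19. Promoter sequences are RefSeq's for GRCh38.p14, matched by symbol.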

Additional observations from a re-analysis of the deposited data

Results flagged for a closer look

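KRCC1 and PLK3 rose more in H929 than in MM1S at 6 h by the interaction test in limma, with differences of 2.36 and 1.71 on the log2 scale. Between 6 and 24 h in H929 the change was higher at 24 h for MYL5 (difference 3.33), RGS1 (2.14) and TRAF3IP3 (1.95), and lower for CRYGS (-2.50), HIST1H4C (-2.48) and TMPRSS5 (-2.07), again by the interaction test. In the 6 refits of the H929 6 h comparison KRCC1 and RGS1 held. TRAF3IP3 and HIST1H4C were called in 2 of the 6 refits, and PLK3, MYL5, CRYGS and TMPRSS5 in only 1. These counts concern the 6 h change itself and not the differences above. The difference between the lines was called for 0 genes without treated H929 replicate 2 at 6 h. The differences of KRCC1 and PLK3 were thus lost there. For the differences between 6 and 24 h, single genes without 1 library are not reported here.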

How the results depend on the processing

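No named gene reversed, but after rescaling more genes rose than fell, and more had a higher than a lower change at 24 h, the opposite of the deposited scale. The 272 calls (128 higher, 144 lower) became 571 (252 and 319) with a pseudocount of 5, 64 (19 and 45) in a fit of the 6 libraries alone, 1155 (635 and 520) after rescaling and 1579 (876 and 703) with a rescaling reference from the 6 libraries. Without a filter 88 were lower, and without 2 MM1S libraries that stand apart (YKL-5-124 6 h replicate 2, DMSO 24 h replicate 1) 250 were called. Array weights gave 2448 (1110 and 1338), but their estimation did not converge. With a replicate block the count was 236 (114 and 122), 1112 after rescaling, 18 for the line difference and 590 for the time difference; the numbers do not pair the samples. Without 1 library the count lay between 88 and 236 (50 to 124 higher, 32 to 167 lower), and after rescaling between 555 and 1040 (281 to 544, 274 to 496). The 21 line differences (17 and 4) became 12 (9 higher) with a pseudocount of 0.5, 85 (75 and 10) with 5, 4 (3 and 1) without a filter, 141 (90 and 51) after rescaling, and 0 to 72 (0 to 68, 0 to 4) without 1 H929 library. The 803 time differences (36 and 767) became 1225 (58 and 1167) with a pseudocount of 5, 443 (419 lower) without a filter, 1295 (716 and 579) after rescaling, and 292 to 1418 (15 to 36, 272 to 1382) without 1 library. Leaving out libraries from the 2 interactions was chosen after seeing the data. Of 137 named genes, 78 were called on the deposited scale, 32 of them in all 6 refits, and 127 after rescaling, 101 of them in all 6. The ratio of library scale, 0.873, and of genes to ERCC, 0.868, stayed between 0.815 and 0.978 and between 0.804 and 0.972 without 1 library. Depth is unknown, so no counting error is given.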
